A study of Mus musculus with 18 samples.

Results

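Mitochondria make ATP with the respiratory chain and an ATP synthase, and the nuclear genes of these complexes were followed here in soleus, a slow postural calf muscle, and in EDL, a fast muscle that lifts the toes. A gene was a member when a probe set of the array named it alone and its symbol began with Nduf, Uqcr, Cox4, Cox5, Cox6, Cox7, Cox8 or Atp5 or was Sdha, Sdhb, Sdhc, Sdhd, Cyc1 or Cycs. This gave 86 of the 12393 genes named singly, with 160 probe sets among 22626, and the probe set of highest mean signal was read for each gene. By symbol, 34 members belonged to complex I, 5 were complex I assembly factors, 4 formed complex II, 10 belonged to complex III or were cytochrome c, 16 belonged to complex IV and 17 to the ATP synthase, complex V. The symbols do not follow the complexes fully: Ndufa4 is counted with complex I by its prefix and is now placed in complex IV, and Cox7a2l acts in joining complexes III and IV.

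All mice were adult C57BL/N6 males of the same age (the sample labels write the strain as C57/BL6), with no transgene or drug. Flown mice (BF, Bion Flown) spent 30 days in microgravity on the Bion M1 biosatellite, ground mice (BG, Bion Ground) lived at normal gravity in a replicate of the flight habitat, and Flight Control mice (FC) lived in standard cages of an animal facility. BF and BG mice ate paste food and FC mice standard chow, and BF mice were transported after landing before their muscles were taken, so that food goes with FC, transport goes with BF, and neither can be told apart from the group. Each group gave 3 arrays of soleus (SOL) and 3 of EDL, 18 in all, each array being 1 muscle. The labels do not state which soleus and EDL came from the same mouse.

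The respiratory chain takes electrons from NADH through complex I and from succinate through complex II, passes them by coenzyme Q to complex III and by cytochrome c to complex IV, where they reduce oxygen. Complexes I, III and IV pump protons across the inner mitochondrial membrane, and complex V lets the protons flow back and uses their energy to make ATP. Slow oxidative fibres, which are frequent in soleus, are known for their many mitochondria, while fast glycolytic fibres have fewer. In whole muscle, a lower signal can come from fewer fibres of a type or from less RNA in each fibre, and these cannot be told apart.

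Signals are RMA values in log2 units, in which a difference of 1 is a 2-fold change. Members had mean signals from 5.01 to 13.94, and 74 of the 86 had 11 or more, in a table whose highest value was 14.53. Arrays of the same group correlated between 0.978 and 0.995. Tests were limma's, with the adjusted p taken over all 22626 probe sets and a call, at whatever fold change, meant an adjusted p under 0.05. An exact permutation test of 3 against 3 arrays cannot give a p below 0.1, so that the limma fit, which shares its spread across genes, is the only test given. The p values measure the spread between these arrays.

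In soleus of flown mice the members were lower than in both ground groups. Against BG, 37 of the 86 members fell and 0 rose, which is 43% called down, where 12.3% of all genes were called down and 11.1% up. Against FC, 25 fell and 0 rose, or 29.1%, where 16% of all genes were called down and 9.02% up. The falls were small: in the probe set read for each gene, 0 members passed both the adjusted p and a 2-fold change in any comparison, and the median log2 fold change of the members was -0.27 against BG and -0.22 against FC, beside 0.03 and -0.00 over all genes. The log2 fold change against BG was negative for 82 of the 86 members, and against FC for 70. Leaving out single arrays moved the count against BG to 24 (without BF replicate 2), 22 (without BG replicate 2) and 23 (without BG replicate 3), and the count against FC to 15 (without BF replicate 2), with 0 rises against BG in each. The 2 comparisons share the BF arrays: 17 members were called down in both, 20 against BG alone of the pair, 8 against FC alone, and 41 in neither.

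Genes with strong signals were called down more often than genes in general, members or not. Among the 74 members with a mean signal of 11 or more, 34 (45.9%) were called down against BG, with a median of -0.28, while 23.7% of the 434 other genes at such signals were called down, with a median of -0.13. Against FC the members gave 24 of 74 (32.4%) and a median of -0.23, and the other strong genes 22.1% and -0.03. By band of mean signal, 3 of 12 members under 11, 11 of 19 from 11 to 12, 17 of 38 from 12 to 13 and 6 of 17 at 13 or more were called down against BG, with medians of -0.20, -0.33, -0.29 and -0.20. The part of signal strength in these differences was not tested.

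Per array, the mean over the 86 members of the deviation from each member's overall mean was -0.19, -0.28 and -0.09 in SOL BF, 0.09 to 0.13 in SOL BG and -0.01 to 0.07 in SOL FC. All 3 BF arrays were thus below the 6 ground arrays of soleus, with replicate 2 the lowest and replicate 3 the nearest to the ground mice. In EDL the same mean was 0.02, -0.14 and 0.08 in BF, -0.02 to 0.09 in BG and -0.04 to 0.04 in FC, and the groups overlapped. Gene by gene, all 3 SOL BF arrays lay below all 6 ground arrays for 39 members, or 45.3%, and for 12.3% of all genes. In EDL this was so for 5 members, or 5.81%, and for 4.73% of all genes.

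**Figure D1:**
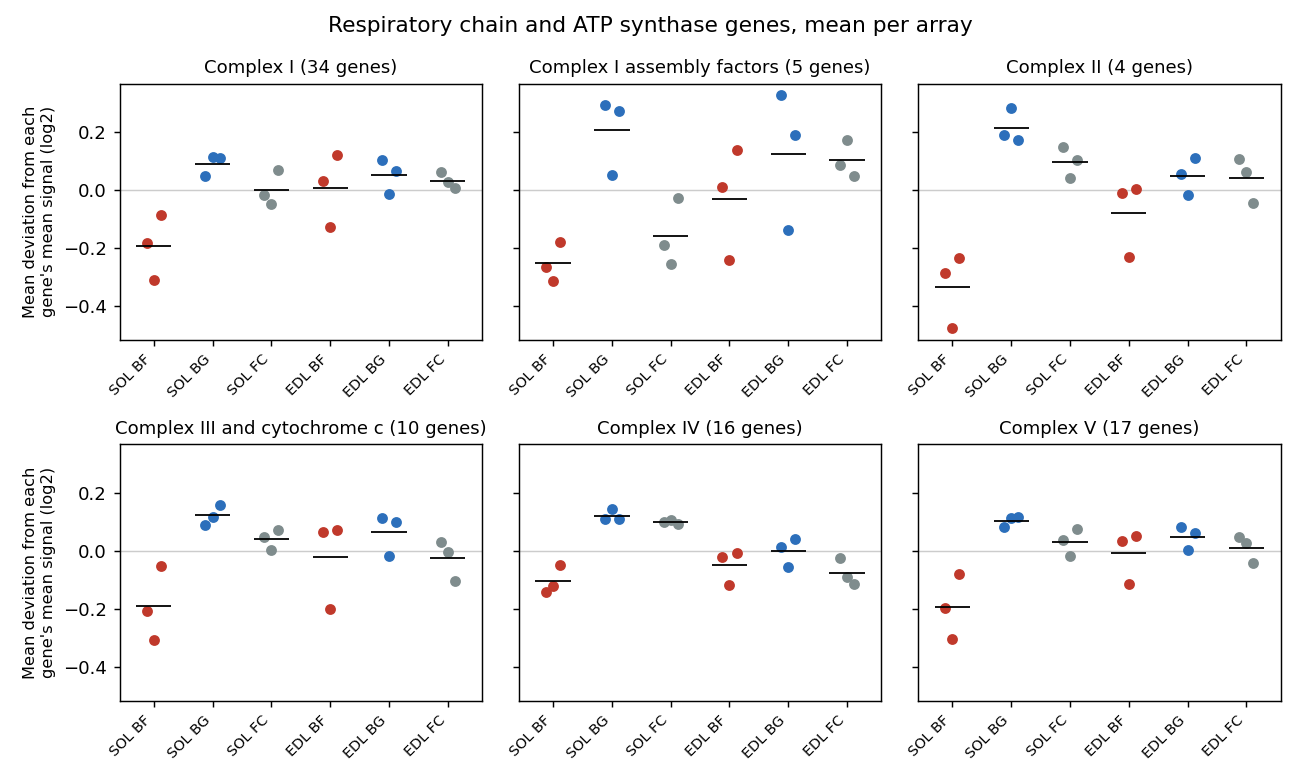
Mean deviation of the genes of each complex from their overall mean signal (vertical axis, log2 units) in each of the 18 arrays (points) of the 6 groups, with the group mean as a line; red is BF, blue BG and grey FC. For all members together, the 3 SOL BF arrays were at -0.19, -0.28 and -0.09 and the SOL BG arrays at 0.09 to 0.13.

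Promoters were read for 71 of the 86 members from RefSeq sequences of GRCm38.p6, which cover 250 bases before and 50 bases after the start of the gene. The letters of 4 motifs known from such genes were searched on both strands: AAGGTCA of estrogen-related receptors, CCGGAAG of ETS factors such as GABP, GCGCATGCG of NRF1 and AAGATGG of YY1. NRF1 letters read the same on both strands when 1 more base matches, so that such a site is found in overlapping copies. AAGGTCA was in 7 of 71 member promoters (9.86%) and in 5.37% of the 26954 other genes, CCGGAAG in 18 (25.4%) and 9.89%, GCGCATGCG in 10 (14.1%) and 1.92%, and AAGATGG in 10 (14.1%) and 7.26%. At least 1 of the 4 was in 50.7% of the members and in 22.3% of the others. The others were all further genes with a RefSeq promoter, whether or not the array measured them. Of the members with a promoter, 16 of 31 called down against BG (51.6%) and 20 of 40 not called (50%) held at least 1. The NRF1 letters were in 2 of 31 called and 8 of 40 not called, and no difference was tested.

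The 250 bases before the start are printed for 5 members, 5′ to 3′ on the strand of the gene, in lower case with the matching letters in capitals. They show the members with the largest changes of complexes I and IV (Ndufb10 and Cox7a1), the assembly factor with the largest fall (Ndufaf1), cytochrome c (Cycs) and an isoform that was not called (Cox6a1):
Ndufb10, chr17:24724424-24724673, minus strand: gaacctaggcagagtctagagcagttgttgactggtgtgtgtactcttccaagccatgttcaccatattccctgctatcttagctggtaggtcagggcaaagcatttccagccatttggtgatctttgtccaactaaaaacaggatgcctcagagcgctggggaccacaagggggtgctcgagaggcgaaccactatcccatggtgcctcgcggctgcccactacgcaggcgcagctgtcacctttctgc
Cox7a1, chr7:30183921-30184170, plus strand: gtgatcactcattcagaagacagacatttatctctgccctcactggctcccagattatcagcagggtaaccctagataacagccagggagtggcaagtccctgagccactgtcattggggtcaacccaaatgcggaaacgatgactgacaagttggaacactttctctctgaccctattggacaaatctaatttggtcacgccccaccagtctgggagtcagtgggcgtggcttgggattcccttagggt
Ndufaf1, chr2:119662835-119663084, minus strand: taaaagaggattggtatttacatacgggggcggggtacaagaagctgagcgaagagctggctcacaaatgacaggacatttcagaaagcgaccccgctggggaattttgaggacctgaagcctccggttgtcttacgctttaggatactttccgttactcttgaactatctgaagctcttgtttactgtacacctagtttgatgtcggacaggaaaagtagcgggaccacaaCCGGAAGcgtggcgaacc
Cycs, chr6:50566570-50566819, minus strand: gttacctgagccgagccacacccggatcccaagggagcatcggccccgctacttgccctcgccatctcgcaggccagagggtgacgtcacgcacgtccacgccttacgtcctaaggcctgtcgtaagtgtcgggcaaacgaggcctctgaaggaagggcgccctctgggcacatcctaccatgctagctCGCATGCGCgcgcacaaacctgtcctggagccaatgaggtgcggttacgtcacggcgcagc
Cox6a1, chr5:115348959-115349208, minus strand: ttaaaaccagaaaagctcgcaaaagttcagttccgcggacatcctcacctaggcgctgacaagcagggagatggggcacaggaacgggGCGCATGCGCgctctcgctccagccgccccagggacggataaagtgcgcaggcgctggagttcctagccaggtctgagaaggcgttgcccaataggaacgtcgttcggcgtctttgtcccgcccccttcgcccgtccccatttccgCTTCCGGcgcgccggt
Ndufb10 and Cox7a1 hold none of the 4 motifs in this window, Ndufaf1 holds the ETS letters close to its start, Cycs the NRF1 letters as their reverse complement, and Cox6a1 the NRF1 letters on both strands and the ETS letters as their reverse complement. A match is a description of the sequence only.

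Complex I, the NADH dehydrogenase, had 14 of 34 members called down against BG and 10 against FC, 7 of them in both. The shares of all genes called down were 12.3% against BG and 16% against FC, and those of other strong genes 23.7% and 22.1%. The median of complex I was -0.24 against BG and -0.20 against FC. Ndufb10, a subunit of the membrane arm, had signals of 11.06, 10.98 and 11.26 in SOL BF, 12.04, 11.96 and 11.91 in SOL BG and 11.75, 11.67 and 11.97 in SOL FC. Every BF array was lower than every ground array. Its log2 fold change was -0.87 ± 0.11 (SE) against BG (adjusted p = 5.42e-05), a 1.83-fold lower signal, and -0.70 against FC (adjusted p = 0.000224). Ndufb3, also of the membrane arm, read 11.40, 11.64 and 11.64 in SOL BF, 12.19 to 12.34 in SOL BG and 11.98 to 12.20 in SOL FC, again without overlap. It fell by 0.72 ± 0.13 against BG (adjusted p = 0.000922) and by 0.51 against FC (adjusted p = 0.00784).

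Calls came from every part of complex I. In the NADH module, which takes up the electrons, 2 of 7 members were called down against BG (Ndufv1 and Ndufs1), in the quinone module, which hands them on, 3 of 7 (Ndufs3, Ndufa5 and Ndufa9), and in the membrane arm, which pumps protons, 9 of 18. Of all genes 12.3% were called down, and of other strong genes 23.7%, so that 2 of 7 was near the share of strong genes. Ndufv1, which carries the site that binds NADH, fell by 0.36 ± 0.10 against BG (adjusted p = 0.0131) and by 0.48 against FC (adjusted p = 0.00187). Ndufab1, the acyl carrier protein of mitochondria and a subunit of complex I, read 12.06 to 12.21 in SOL BF, 12.67 to 12.71 in SOL BG and 12.33 to 12.45 in SOL FC. The 3 groups did not overlap, and the FC arrays lay between the others: BF was lower than BG by 0.55 ± 0.09 (adjusted p = 0.000649), FC was lower than BG by 0.31 (adjusted p = 0.039), and BF against FC gave -0.24 (adjusted p = 0.0659). Ndufc2, Ndufa5, Ndufs3 and Ndufb8 were called against BG with adjusted p between 0.031 and 0.035, and only Ndufb8 of these was called against FC (adjusted p = 0.00796). Ndufa7, with 0.04 ± 0.09, was the single complex I member with a positive value against BG (adjusted p = 0.787).

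Of the 5 assembly factors of complex I, which help build the complex and do not stay in it, 2 were called down against BG and 0 against FC. Of all genes, 12.3% and 16% were called down. Ndufaf1 had the largest fall of all members, with 8.911, 8.934 and 9.138 in SOL BF and 10.003, 9.713 and 9.939 in SOL BG. The difference was -0.89 ± 0.17 (adjusted p = 0.0017), a 1.85-fold lower signal. The FC arrays, at 9.04, 9.23 and 9.50, overlapped those of BF and were themselves lower than BG by 0.63 (adjusted p = 0.0251). Ndufaf7, a methyltransferase that acts in assembly, fell by 0.62 ± 0.12 against BG (adjusted p = 0.00239) and had -0.29 against FC (adjusted p = 0.0985).

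Complex II, succinate dehydrogenase, also works in the tricarboxylic acid cycle, and all of its 4 subunits are encoded in the nucleus. In soleus of flown mice it had 3 of 4 members called down against BG and 3 of 4 against FC. All 4 were called in at least 1 of these comparisons. Of all genes, 12.3% and 16% were called down. Sdhc, a membrane anchor with a coenzyme Q binding site, read 10.71, 10.58 and 10.81 in SOL BF, 11.49, 11.71 and 11.51 in SOL BG and 11.47, 11.43 and 11.31 in SOL FC. The BF arrays were below all 6 ground arrays, by 0.87 ± 0.11 against BG (adjusted p = 8.45e-05) and by 0.70 against FC (adjusted p = 0.000327). Sdhb, the iron-sulfur subunit, read 12.39 to 12.57 in SOL BF and 13.02 to 13.16 in the 6 ground arrays, and fell by 0.60 ± 0.11 against BG (adjusted p = 0.00139) and by 0.62 against FC (adjusted p = 0.000761). Sdhd, the other anchor, and Sdha, the flavoprotein that oxidises succinate, were each called once. Sdhd was lower by 0.46 ± 0.13 against BG (adjusted p = 0.0152), with 0.01 against FC (adjusted p = 0.962), and its FC arrays at 11.26 to 11.47 also lay below the BG arrays at 11.84 to 11.89. Sdha had -0.26 ± 0.12 against BG (adjusted p = 0.133) and fell by 0.40 against FC (adjusted p = 0.0217).

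Complex III, which passes electrons from coenzyme Q to cytochrome c, and cytochrome c itself had 3 of 10 members called down against BG and 2 against FC, and all 10 values against BG were negative. Against BG, 3 of 10 was above the 12.3% of all genes and near the 23.7% of other strong genes. Against FC, 2 of 10 was near the 16% of all genes and the 22.1% of other strong genes. Cyc1, the cytochrome c1 of complex III, read 11.76, 11.40 and 11.68 in SOL BF, 12.15 to 12.19 in SOL BG and 12.46 to 12.48 in SOL FC. The groups did not overlap, with FC the highest, and Cyc1 had the largest fall of all members against FC: -0.86 ± 0.11 (adjusted p = 7.24e-05), or 1.81-fold, beside -0.55 against BG (adjusted p = 0.0028). Uqcrc2, a core protein, fell by 0.56 ± 0.13 against BG (adjusted p = 0.00556) and had -0.32 against FC (adjusted p = 0.084). Cycs, the mobile electron carrier, read 12.46, 12.58 and 12.78 in SOL BF, 13.04, 13.10 and 13.31 in SOL BG and 12.50, 12.55 and 12.96 in SOL FC. It was lower than BG by 0.55 ± 0.17 (adjusted p = 0.0268) and overlapped FC, with -0.07 (adjusted p = 0.813). Uqcrc1, the other core protein, was the second call against FC, with -0.39 (adjusted p = 0.0426) and -0.33 against BG (adjusted p = 0.088).

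**Figure D2:**
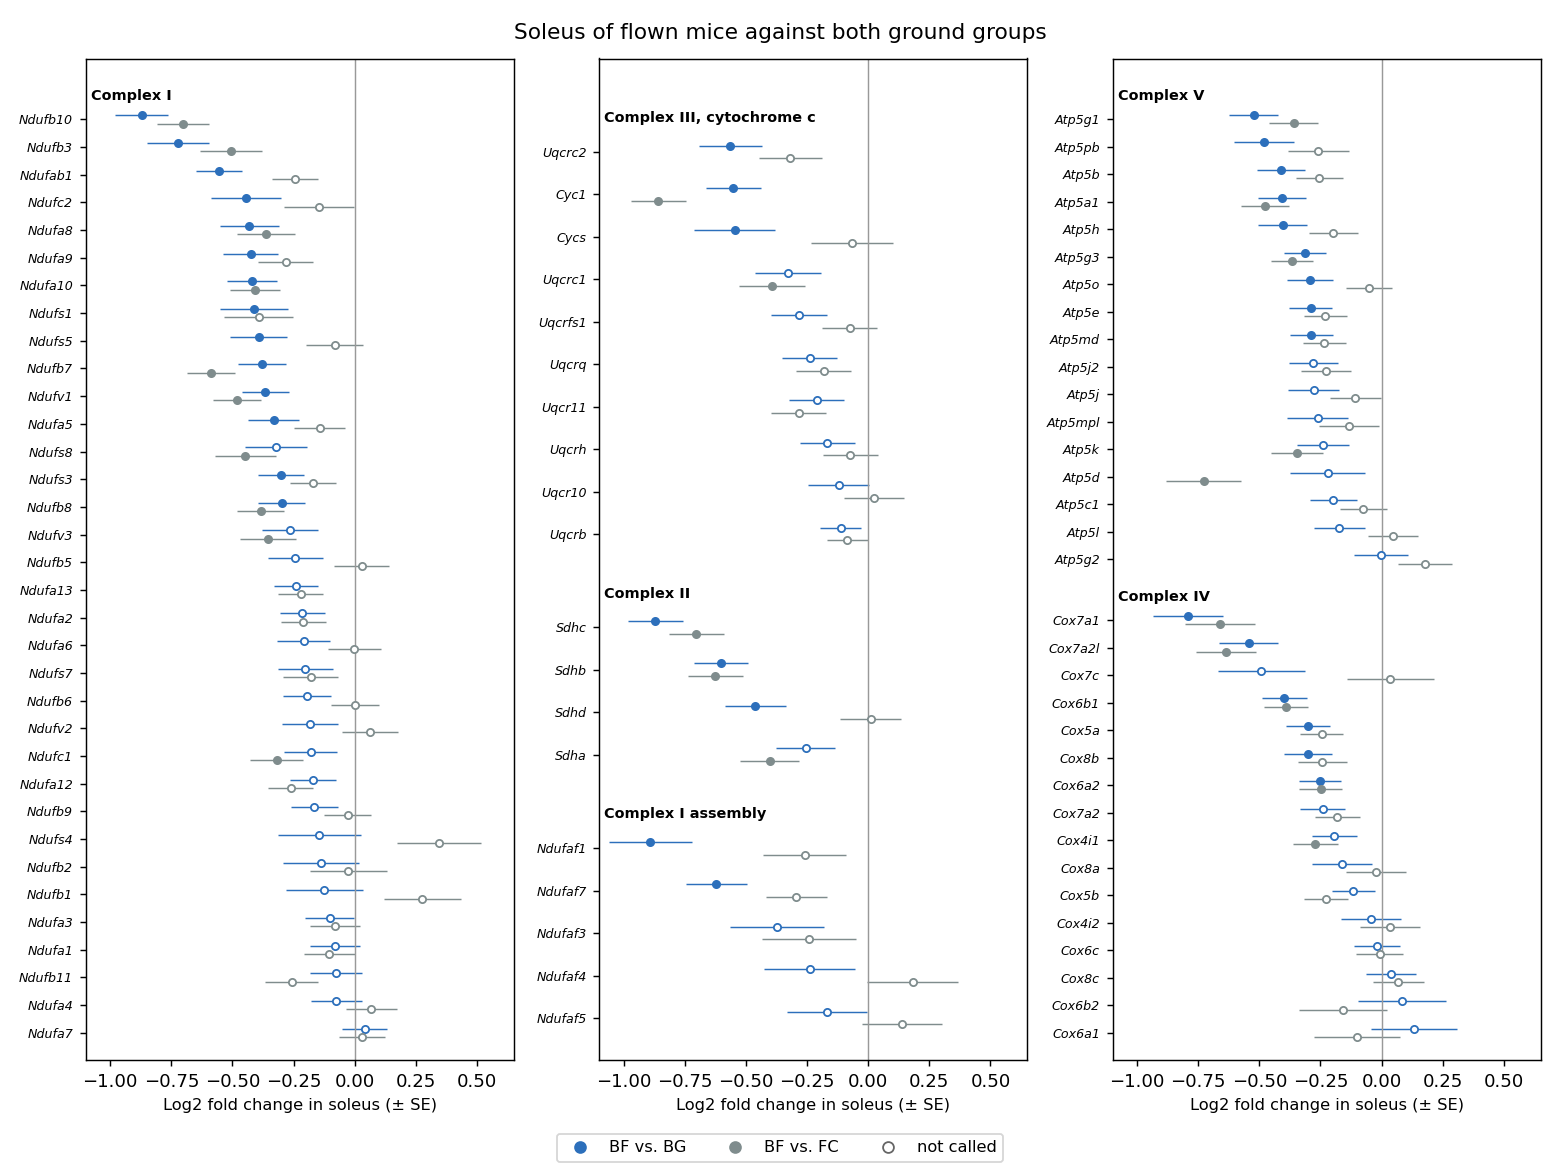
Log2 fold change in soleus (horizontal axis) with its standard error for each of the 86 members, grouped by complex, for BF vs. BG (blue) and BF vs. FC (grey); filled points have an adjusted p under 0.05. Of the 86 members, 37 were called down against BG and 25 against FC, and no filled point lies above 0.

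Complex IV, cytochrome c oxidase, had 6 of 16 members called down against BG and 5 against FC, 4 in both. The shares of all genes called down were 12.3% and 16%, and those of other strong genes 23.7% and 22.1%. Several nuclear subunits of complex IV come as a form made in heart and skeletal muscle and a form made in most tissues. The muscle form of subunit 7a, Cox7a1, read 11.37, 11.35 and 11.74 in SOL BF, 12.04, 12.35 and 12.44 in SOL BG and 12.03, 12.05 and 12.37 in SOL FC, with no overlap. It fell by 0.79 ± 0.14 against BG (adjusted p = 0.00119), or 1.73-fold, and by 0.66 against FC (adjusted p = 0.00314). The general form, Cox7a2, had -0.24 ± 0.09 against BG (adjusted p = 0.0692), and BF vs. FC gave -0.18 (adjusted p = 0.167).

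The same order held for the other isoform pairs, at smaller sizes and with p values close to the threshold. Cox6a2, the muscle form of subunit 6a, fell by 0.25 ± 0.09 against BG and equally by 0.25 against FC, each with an adjusted p of 0.0458, while Cox6a1 had 0.13 ± 0.18 (adjusted p = 0.619) and -0.10 (adjusted p = 0.721). Cox6a1 was also the member with the widest spread in flown mice, at 12.16, 12.55 and 11.62. Cox8b, the muscle form of subunit 8, fell by 0.30 ± 0.10 against BG (adjusted p = 0.0391) with -0.24 against FC (adjusted p = 0.0876), and Cox8a had -0.16 ± 0.12 (adjusted p = 0.36) and -0.02 (adjusted p = 0.91). A difference in change between the forms of a pair was not tested. Of the other subunits, Cox6b1 fell by 0.40 against BG (adjusted p = 0.00578) and by 0.39 against FC (adjusted p = 0.00525), and its sister form Cox6b2, at a mean signal of 5.01, had 0.08 (adjusted p = 0.771). Cox4i1, the main form of subunit 4, had -0.19 against BG (adjusted p = 0.141) and fell by 0.27 against FC (adjusted p = 0.0418), and Cox4i2 was at a mean signal of 5.97 with -0.04 (adjusted p = 0.828). Cox7a2l fell by 0.54 ± 0.12 against BG (adjusted p = 0.0049) and by 0.64 against FC (adjusted p = 0.00131), and Ndufa4 had -0.07 (adjusted p = 0.633) and 0.07 (adjusted p = 0.672). Cox7c was read from a probe set with a mean signal of 6.38 and had -0.49 against BG (adjusted p = 0.0587).

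The ATP synthase had 9 of 17 members called down against BG and 5 against FC, 3 in both, and all 17 values against BG were negative. In the lists of its parts, 6 of 9 members of the catalytic head and stalks fell against BG, and 2 of 6 of the membrane part. Atp5md (-0.29, adjusted p = 0.027, called) and Atp5mpl (-0.26, adjusted p = 0.136) were in neither list. The counts of the parts are therefore incomplete, and the parts were not compared. Of all genes, 12.3% were called down against BG and 16% against FC. The catalytic subunit Atp5b fell by 0.41 ± 0.10 (adjusted p = 0.0072) and its partner in the head, Atp5a1, by 0.41 ± 0.10 (adjusted p = 0.00761); against FC they had -0.25 (adjusted p = 0.0692) and -0.48 (adjusted p = 0.0021). Atp5pb, of the peripheral stalk, fell by 0.48 ± 0.12 against BG (adjusted p = 0.011).

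Subunit c, which forms the rotating ring, is encoded by 3 genes that make the same mature protein. Atp5g1 read 12.14, 12.10 and 12.28 in SOL BF, 12.67 to 12.71 in SOL BG and 12.45 to 12.58 in SOL FC. It fell by 0.52 ± 0.10 against BG (adjusted p = 0.00191) and by 0.36 against FC (adjusted p = 0.0163), with every BF array below every ground array. Atp5g3 fell by 0.31 ± 0.09 (adjusted p = 0.015) and by 0.37 (adjusted p = 0.00494). Atp5g2 had -0.00 ± 0.11 against BG (adjusted p = 0.994), and BF vs. FC gave 0.18 (adjusted p = 0.272), with 11.90, 11.90 and 12.14 in SOL BF against 11.94 to 12.03 in SOL BG. Atp5d, the delta subunit of the central stalk, differed between the ground groups: its FC arrays, at 12.72, 12.80 and 12.59, lay above the BG arrays at 12.34, 12.06 and 12.20. FC was higher than BG by 0.51 ± 0.15 (adjusted p = 0.0409), and BF was lower than FC by 0.73 (adjusted p = 0.00255), with -0.22 against BG (adjusted p = 0.318).

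**Figure D3:**
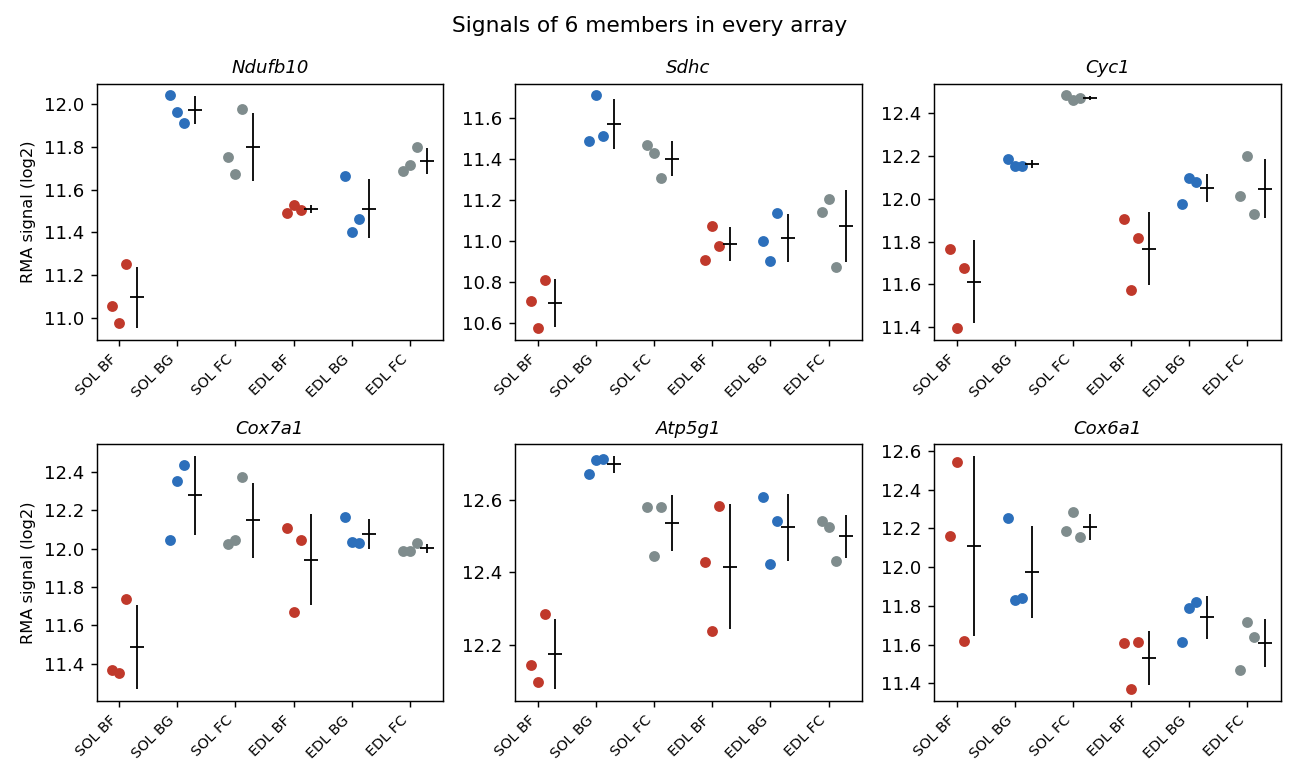
RMA signals (vertical axis, log2 units) of 6 members in each of the 18 arrays (points), with the group mean and SD (n = 3) beside them; the vertical scale differs between panels. Ndufb10, Sdhc, Cyc1, Cox7a1 and Atp5g1 have all 3 SOL BF arrays below all 6 ground soleus arrays, and Cox6a1 spreads from 11.62 to 12.55 in SOL BF.

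Few members were called between the ground groups, which differed in housing and in food. FC against BG in soleus gave 1 member up (Atp5d) and 3 down (Ndufab1, Ndufaf1 and Sdhd), or 1.16% up and 3.49% down, beside 5.78% and 4.03% of all genes, and the median of the members was -0.07. These calls were few and not firm: without BG replicate 1 or 3 or FC replicate 2, 0 were left, and without BG replicate 2 or FC replicate 1, 1 was left. In the mean over the members, all 3 FC arrays (-0.01 to 0.07) lay below all 3 BG arrays (0.09 to 0.13). The log2 fold change was negative for 62 of 86 members, beside 5046 of 12393 genes. Other genes with strong signals leaned down as well. The median was -0.06 for the 74 members with a mean signal of 11 or more, with 2.7% called down. For the 434 other genes at such signals it was -0.07, with 8.99% called down. At an unadjusted limma p under 0.05, 14 members were lower and 2 higher, beside 1222 and 1881 of all genes. In the probe sets read, Sdhd and Cycs had similar values in FC and BF against BG, -0.47 and -0.46 for Sdhd and -0.48 and -0.55 for Cycs. A second Sdhd probe set, at a mean signal of 7.28, did not show this similarity. It had -0.97 for BF vs. BG, which was called, and -0.49 for BF vs. FC, which was not. The further Cycs probe sets had -0.05 and -0.20 for BF vs. FC, neither of them called.

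Many members had more than 1 probe set on the array, and these gave a reading of the same RNA that the choice of the highest mean signal did not use. Of 74 such further probe sets, in 46 members, 31 were called down against BG and 2 up, and 65 had a negative value, with a median of -0.30. Among the 17 members called down that had a second probe set, 13 had another one called down. A further 11 members were called down through another probe set alone: Atp5d, Atp5k, Cox5b, Cox6c, Ndufaf4, Ndufb5, Ndufb6, Ndufs7, Ndufs8, Ndufv2 and Uqcrb. Probe sets of a gene therefore did not always agree, and 2 of the further probe sets were called and lower by more than 2-fold. Atp5o had -0.29 (adjusted p = 0.0364) in its brightest probe set and -1.53 (adjusted p = 0.0031) in the other, and Ndufb6 -0.20 (adjusted p = 0.164) and -1.04 (adjusted p = 0.00462). Ndufs8 had -0.32 (adjusted p = 0.0745) in its brightest probe set and -0.79 (adjusted p = 0.00246) in another, and Cox5b -0.11 (adjusted p = 0.37) and -0.51 (adjusted p = 0.000871). The 2 probe sets called up named Cox5b (0.42, at a mean signal of 3.88) and Uqcrq (0.81, at 5.85), and the brightest probe sets of these genes had -0.11 and -0.24.

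In EDL no member was called by limma in any comparison of the groups. BF vs. BG gave 0 up and 0 down at the adjusted p (0.266% and 0.113% of all genes), BF vs. FC 0 and 0 (1.02% and 2.52%) and FC vs. BG 0 and 0 (0.0242% and 0.00807%). At an unadjusted p under 0.05, 2, 4 and 2 members were lower and 0, 0 and 0 higher, and with array weights 3 members were called down in BF vs. FC. The medians of the members were -0.06, -0.02 and -0.04. Ndufb10 read 11.49, 11.53 and 11.51 in EDL BF and 11.40 to 11.66 in EDL BG, which overlap. Cox7a1 read 12.11, 11.67 and 12.05 in EDL BF and 12.03 to 12.17 in EDL BG, where replicate 2 of BF was the low array. That array was the lowest of the EDL BF arrays in the mean over the members too.

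The BF vs. BG changes of the muscles were compared directly, by subtracting the change of EDL from that of soleus. It was called negative for 4 members and positive for 0, or 4.65% of the members, beside 5.04% and 4.21% of all genes, and the median was -0.22, with 76 of 86 below 0. Over all genes 5525 of 12393 were below 0. Other strong genes shared much of this lean. At a mean signal of 11 or more, the median was -0.22 in the members and -0.17 in the 434 others. Of these, 5.41% and 11.3% were called negative. The 4 members were Ndufb10 (-0.87 ± 0.15, adjusted p = 0.00409), Sdhc (-0.84 ± 0.16, adjusted p = 0.00658), Ndufb3 (-0.74 ± 0.18, adjusted p = 0.0207) and Ndufab1 (-0.48 ± 0.13, adjusted p = 0.034). Their changes in EDL lay between -0.08 and 0.02. For the other members, Cox7a1 and Ndufaf1 included (adjusted p = 0.0517 and 0.0557), calls in soleus and none in EDL do not show a difference between the muscles. The share of 4.65% was near that of all genes. It rested on single arrays: 2 members were called without SOL BF replicate 1, SOL BG replicate 2 or SOL BG replicate 3, 9 without EDL BG replicate 1, 10 without EDL BF replicate 2 and 11 without SOL BF replicate 3. With FC in place of BG, 1 member was called negative, Ndufv1 (-0.62), and 0 positive, beside 1.19% and 0.855% of all genes. This count was 0 without SOL FC replicate 2 or 3, EDL BF replicate 1 or 3 or EDL FC replicate 1, 2 without SOL BF replicate 3, and 3 without EDL BF replicate 2.

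**Figure D4:**
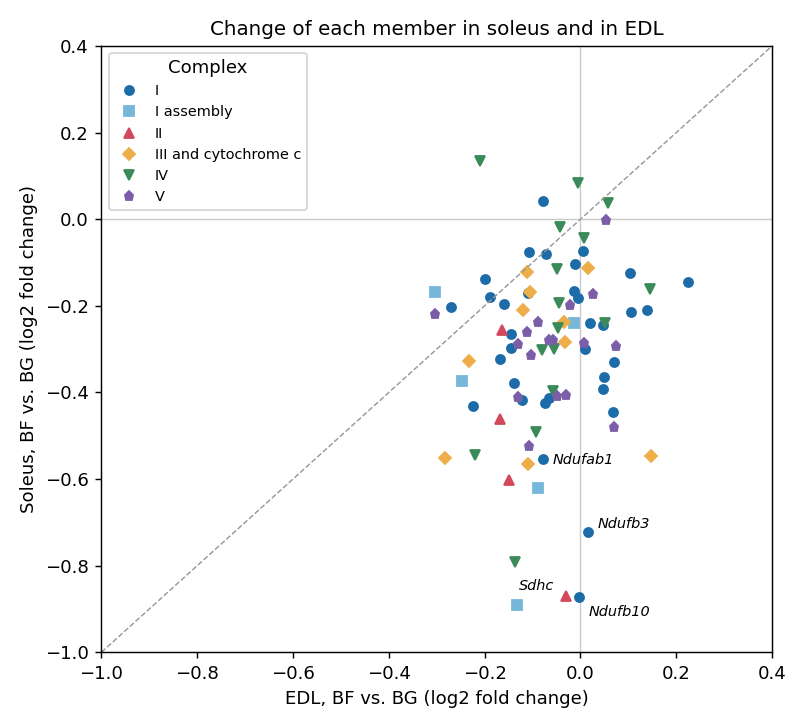
Log2 fold change of BF vs. BG in EDL (horizontal axis) and in soleus (vertical axis) for the 86 members, by complex, with a dashed line where the 2 are equal. Below the line lie 76 members, and the 4 named ones are those for which the difference between the muscles was called. At a mean signal of 11 or more, the median difference was -0.22 in the members and -0.17 in the 434 other genes.

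In ground mice, soleus and EDL had similar signals for most members. In BG, 5 members were higher in soleus (Ndufb3, Ndufb7, Ndufb10, Sdhc and Cox8a) and 0 lower, or 5.81%, beside 8.3% and 8.71% of all genes, and the median difference was 0.07. In FC, 7 were higher (Ndufb3, Ndufb7, Ndufv1, Cyc1, Cox6a1, Cox8a and Atp5d) and 1 lower (Ndufaf5), beside 8% and 8.4% of all genes, with a median of -0.00. Ndufb3 was higher in soleus by 0.65 in BG (adjusted p = 0.00203) and by 0.43 in FC (adjusted p = 0.0281), and Cox8a by 0.54 (adjusted p = 0.00577) and 0.42 (adjusted p = 0.027). In flown mice 4 members were lower in soleus (Ndufb10, Ndufs3, Cox7a1 and Atp5pb) and 1 higher (Cox6a1), beside 6.63% and 5.79% of all genes, and the median was -0.18 with 78 of 86 below 0. Over all genes 6096 of 12393 were below 0. Genes with a mean signal of 11 or more had a similar median, -0.18 in the members and -0.16 in the 434 others. Of these, 5.41% and 12% were called lower in soleus. Of the 4 lower members, Ndufb10 alone was called in the other direction in a ground group: it was higher in soleus by 0.46 in BG (adjusted p = 0.00715) and had -0.41 in BF (adjusted p = 0.0214). In BG and FC, Ndufs3 had -0.01 and -0.13, Atp5pb 0.10 and -0.24 and Cox7a1 0.20 and 0.15, none of them called. Sdhc was higher by 0.55 in BG (adjusted p = 0.00263) and had -0.29 in BF (adjusted p = 0.105). These comparisons share the arrays from which the change of soleus was read. The 8 calls in FC became 4, 3, 5 and 3 without SOL FC replicate 1, SOL FC replicate 2, EDL FC replicate 1 and EDL FC replicate 3. The 5 calls in BF became 1, 0 and 12 without SOL BF replicates 1, 2 and 3, and 0 and 2 without EDL BF replicates 1 and 3. Without EDL BF replicate 2 there were 7 calls, of which 1 was among the 5.

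Most assembly factors against BG, and most genes of electron entry against BG and against FC, fell in the flown soleus too. The lists of genes that serve the chain without being members were assembly factors, other routes of electrons into coenzyme Q and its synthesis, exchange of ATP and phosphate across the inner membrane, and regulators. Of 27 measured assembly factors outside the members, 16 fell and 0 rose in soleus against BG, with a median of -0.58, and 13 fell and 1 rose (Cox16) against FC, where 12.3% and 16% of all genes were called down. Cox15, which makes heme a for complex IV, fell by 1.23 ± 0.14 against BG (adjusted p = 2.37e-05) and by 1.13 against FC (adjusted p = 3.4e-05). Sdhaf4 and Sdhaf2, which help assemble the flavoprotein of complex II, fell by 1.21 (adjusted p = 9.84e-05) and 1.12 (adjusted p = 0.000579) against BG. Of 15 genes of electron entry and coenzyme Q, 11 fell and 1 rose in the flown soleus against BG, and 11 fell and 1 rose against FC. Etfdh, which brings electrons from fatty acid oxidation to coenzyme Q, fell by 0.95 ± 0.17 (adjusted p = 0.00119) and Coq10a, a coenzyme Q binding protein, by 1.06 ± 0.14 (adjusted p = 8.76e-05). The gene that rose was Gpd2, which feeds electrons from glycolysis through glycerol 3-phosphate, with 8.92, 8.20 and 8.71 in SOL BF against 7.36 to 7.57 in SOL BG and 7.80 to 7.92 in SOL FC. It was higher by 1.16 ± 0.18 (adjusted p = 0.000375) and by 0.74 (adjusted p = 0.00651).

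Of 10 exchange genes 2 fell against BG, beside 12.3% of all genes and 23.7% of those with strong signals: Ckmt2, the creatine kinase of muscle mitochondria, by 0.93 ± 0.13 (adjusted p = 0.000142), and Slc25a3, the phosphate carrier, by 0.37 ± 0.09 (adjusted p = 0.00825). Slc25a4, the main ATP carrier of muscle, had -0.16. Of 20 regulators 8 fell and 3 rose against BG, beside 12.3% and 11.1% of all genes, so that the rises were near the share of all genes. Ppargc1a, the coactivator PGC-1alpha, read 9.40, 9.68 and 8.82 in SOL BF, 11.85, 9.83 and 11.03 in SOL BG and 10.05, 10.28 and 10.14 in SOL FC. It was lower than BG by 1.60 ± 0.34 (adjusted p = 0.00321), the BG arrays spread widely, and BF against FC gave -0.86 (adjusted p = 0.0747). Ppargc1b fell by 1.15 ± 0.20 (adjusted p = 0.000898), and Esrra, a nuclear receptor that works with these coactivators, read 8.01 to 8.21 in SOL BF and 8.80 to 9.15 in the ground arrays and fell by 0.95 ± 0.12 (adjusted p = 4.71e-05). Ppara, a receptor that drives fatty acid oxidation, fell by 2.06 ± 0.27 (adjusted p = 0.000112). Nrip1, Pprc1 and Ppard rose. In EDL 0 genes of these lists were called against BG. Against FC, 2 of 27 assembly factors (Cox15, -0.60, and Uqcc1, -0.70) and 2 of 20 regulators (Esrra, -0.51, and Nrip1, -0.87) were called down in EDL, beside 2.52% of all genes. Of the 13 subunits encoded in mitochondrial DNA only ND5 was measured, with -0.35 against BG and no call.

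**Figure D5:**
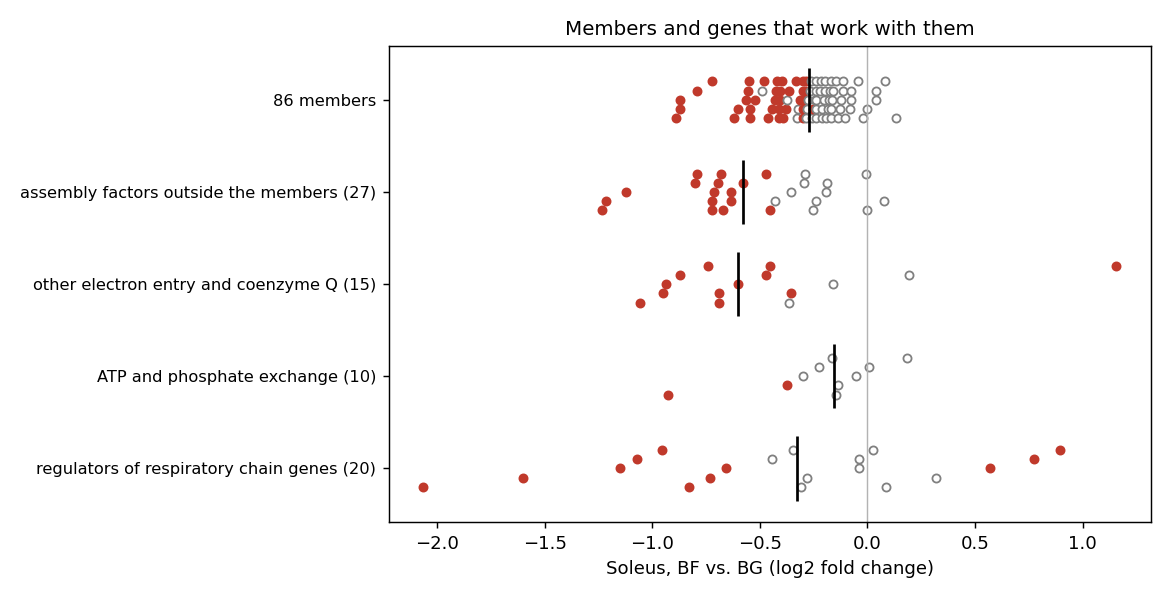
Log2 fold change of BF vs. BG in soleus (horizontal axis) for the 86 members and for 4 lists of genes that work with them (points, with the number of genes in brackets); red points have an adjusted p under 0.05 and the black line is the median of the list. The medians were -0.27 for the members and -0.58 for the 27 assembly factors.

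Markers of fibre types and of other cells moved with the flown soleus, and their part in the lower signals of the members was not tested. All groups had the markers of skeletal muscle at 13.78 to 13.97. In soleus against BG, 11.1% of all genes were called up and 12.3% down. The mean of 11 fast fibre markers was 13.37 to 13.81 in SOL BF, 12.31 to 13.05 in SOL BG and 12.37 to 12.90 in SOL FC, and 5 of 11 were called up and 0 down against BG, with Myh4, the fast IIb myosin, up by 4.26. The other way went 1 of the 11, with -0.77 against BG at an unadjusted limma p under 0.05 and no call. SOL BG replicate 2 stood apart in Myh4, at 12.15 beside 7.68 and 8.71 in the other BG arrays. The mean of 9 slow fibre markers was 12.37 to 12.88 in SOL BF, 13.47 to 13.53 in SOL BG and 13.41 to 13.48 in SOL FC, with 1 of 9 called (Casq2, -2.06) and Myh7, the slow myosin, at -0.72 without a call. Of 5 adipocyte markers 4 rose, and their mean was 9.16 to 10.51 in SOL BF and 7.63 to 8.35 in the ground arrays. Ucp1, which defines brown adipocytes, had a mean signal of 3.86, and 1 of the 3 markers of these cells was called up and 1 down. Of 2 red blood cell markers 1 was called up. Of 6 macrophage markers, at 7.56 to 8.23 in SOL BF and 6.93 to 7.40 in the ground arrays, Cd68 alone was called up. Matrix markers had 3 of 5 called down, with a mean of 9.48 to 10.28 in SOL BF and 10.64 to 11.34 in the ground arrays, and endothelial markers 3 of 5, with 7.14 to 7.48 and 7.86 to 8.25. In EDL the mean of the slow fibre markers spread widely within the groups, from 7.45 to 10.50 in FC, and its part in the comparisons between the muscles was not tested.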

How the data were processed

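RNA of 18 muscles was hybridised to Affymetrix mouse expression arrays. The deposited values are log2 signals that the authors made by RMA in Partek Genomics Suite (background correction, quantile normalization, log2 transformation, median polish). Quantile normalization makes changes relative, and strong signals are compressed, so that their changes may be understated. Samples were grouped by the muscle and condition in their titles; the descriptions of 2 BF EDL samples name Bion M2 and M3, taken as a slip. After 64 control probe sets were left out, 1 mean per group was fitted over all 18 arrays with limma 3.58.1 in R 4.3.3 (empirical Bayes, 12 residual and 5.1 prior degrees of freedom), with 11 contrasts and Benjamini-Hochberg adjustment over 22626 probe sets. The fit was tested on simulated data. All 86 members matched a RefSeq gene by Entrez number, and 8 probe sets naming a member beside other genes were not counted. Members, lists and the rule for naming genes were chosen with earlier results of these data known. The rule took, per complex, the 4 called members with the lowest and the 4 with the highest change, the isoforms, complex II, Cyc1 and Cycs, the called members of the other comparisons and the 3 largest changes of each other list; other members were named after their values were seen. Promoters were searched with Python 3.11.15. Alternatives were the arrays of 1 muscle, no moderation, array weights, a signal filter, the mean over probe sets, centring, replicate or mouse as a block, and leaving out each array. The number of arrays limits the precision.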

Additional observations from a re-analysis of the deposited data

Results flagged for a closer look

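For 5 members the change of soleus differed from that of EDL by the test of the difference itself. With BG as the ground group these were Ndufb10 (-0.87, adjusted p = 0.00409), Sdhc (-0.84, adjusted p = 0.00658), Ndufb3 (-0.74, adjusted p = 0.0207) and Ndufab1 (-0.48, adjusted p = 0.034), and with FC it was Ndufv1 (-0.62). In each the soleus signal of flown mice was the lower, and the change in EDL was small. The values are log2 differences of limma's contrast, with 3 arrays in each of the 4 groups involved. These calls were 4.65% of the members with BG and 1.16% with FC. They were near the 5.04% and 1.19% of all genes called negative. With FC, 0 members were called without SOL FC replicate 2 or 3, EDL BF replicate 1 or 3 or EDL FC replicate 1.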

How the results depend on the processing

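In soleus, BF vs. BG called 25 to 47 of the 86 members over 8 other settings and 22 to 42 when 1 array was left out, all down, and BF vs. FC 17 to 34 and 15 to 30. Of 32 named members called down against BG, 17 were called in every setting, among them Ndufb10, Ndufb3, Ndufaf1, the anchors of complex II, Sdhb, Cyc1, Uqcrc2, Cox7a1, Atp5g1, Atp5b and Atp5a1. The settings counted here are the 8 above and the leaving out of each single BF or BG array of soleus. Cycs and Cox5a lost their calls in 5 of them, Cox8b, Atp5e and Atp5md in 6, and Ndufc2, Ndufa5, Ndufs3 and Atp5o in 7. Cox6a2 lost its call in 8 and Ndufb8 in 9. Ndufab1, Ndufv1, Atp5pb and Atp5g3 each lost it in 1. Over 52 members followed, 641 values stayed called or stayed not called, 77 lost and 10 gained a call. Of the values called in either fit, 0 reversed direction. The direction of values called in neither fit was not read. Ndufab1 had -0.34 (adjusted p = 0.109) as the mean of its probe sets.

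The smaller counts depended on the setting, and the cause was not tested. SOL FC vs. BG called 2 members with the arrays of soleus alone, 2 with ordinary contrasts and 17 with array weights (0 to 4 with 1 array left out). EDL BF vs. FC called 3 with array weights (0 to 0), and the other EDL comparisons stayed at 0 (0 to 0). SOL vs. EDL in BG called 8 with ordinary contrasts, 10 with array weights and 8 with centring (4 to 6), in FC 13 with array weights (3 to 6), and in BF 23 with array weights and 10 with the mean of probe sets (0 to 12). The difference between the muscles in BF vs. BG called 8, 20, 9 and 13 members with ordinary contrasts, array weights, the mean of probe sets and centring (2 to 11), and in BF vs. FC 9 with array weights (0 to 3). With both BF arrays numbered 2 left out, a setting chosen after seeing the data, BF vs. BG and BF vs. FC in soleus called 25 and 17, SOL vs. EDL in BG 8 and in BF 0, and the differences between the muscles 9 and 3.

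The labels give every group the numbers 1 to 3 and do not say what a number shares. Arrays of the same number correlated in their deviations from the group means at -0.13 to 0.30 between conditions of a muscle (7 of 18 pairs over 0.1) and at -0.05 to 0.37 between muscles (6 of 9, with all 3 FC pairs among them). Arrays of different numbers were not correlated for comparison, so these values cannot decide what a number shares. The main fit took the numbers as names, although a shared mouse cannot be told from the labels. With the replicate number as a block, BF vs. BG in soleus called 35 members and BF vs. FC 22, and the difference between the muscles 9 with BG and 0 with FC. With the mouse as a random block, these were 9 and 3, and SOL vs. EDL called 8 in BG, 10 in FC and 6 in BF. With 3 arrays a group, small changes of strong signals are near what the arrays can resolve.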

Other observations

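8 probe sets named a member together with another gene, mostly a close copy or a pseudogene, and their reads cannot be assigned. In soleus against BG, the probe set of Ndufab1 and Ndufab1-ps had -0.82 (adjusted p = 0.000677), that of Ndufs5 and Ndufs5-ps -0.61 (adjusted p = 0.00169), that of Ndufa11 and Ndufa11b -0.45 (adjusted p = 0.0152) and that of Ndufs6 and Ndufs6b -0.26 (adjusted p = 0.0829). Both probe sets of Ndufb4 with Ndufb4b and Ndufb4c had -0.10 and -0.06 without a call.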
